A study of Saccharomyces cerevisiae with 6 samples.

Results

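The genes described here encode small subunit ribosomal proteins that budding yeast keeps as A and B copies, and each is listed with an intron feature on a splicing array. They were chosen by name in the authors' deposited table, as RPS, a number and A or B, leaving out the RPS0, RPS9, RPS14 and RPS21 pairs and RPS22B. This gave 34 genes in 17 pairs, each with 1 row, out of 239 genes and 253 rows. The mutant cells carried PRP8 with the S2197F change, and the cells they were set against carried wild type PRP8. In both, the PRP8 gene sat on a HIS-marked centromeric plasmid and the chromosomal copy was deleted, so the wild type strain differs from an unmodified strain in the same way. Cultures in rich medium (YEPD) were kept at 37 °C and taken at an optical density of about 0.7. RNA of 3 independent pairs of cultures was compared on 6 two-colour arrays, each pair with its dyes exchanged, which gives n = 3.

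Prp8 cradles the active site of the spliceosome, and altered forms of human PRPF8 underlie an inherited loss of sight. Ribosomal protein genes are among the most transcribed genes of growing yeast, and many of them hold an intron, so they make up much of the work of the yeast spliceosome. The A and B copies of a pair encode nearly the same protein, while introns, where present, differ more in sequence. The small subunit proteins coat an rRNA that folds into a head, a body and a platform. The head and body move against each other during translation, and mRNA leaves by the platform.

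Each gene has an exon, an intron and a junction value, which the labels call total, pre- and mature mRNA. An intron probe also reads excised introns and splicing intermediates. For 4 pairs, RPS25, RPS26 and RPS29 among them, the RefSeq gene spans of both copies are equal and a multiple of 3 bases. This leaves no sign of an intron inside the span. What the features labelled intron and junction detect in these 8 genes was not tested. Whether their values below are levels of an unspliced intron is therefore not known here, those of RPS26B and RPS29A among the called genes included. All values are log ratios of S2197F over wild type, 1 per pair of cultures, taken as log2 since the base is not stated; positive values mean more signal in S2197F. Single-array values stop at 16.61, and log2 of 100000 is 16.61 to the same digits. The arrays give no read depth, so 3 replicates set the precision. Values were given for every gene in every replicate except for the RPS26A junction (1 replicate) and the RPS27A and RPS27B junctions (2 replicates). No A and B copy of these 17 pairs shared an identical value in any class, although exon and junction probes cannot be assumed to tell near-identical copies apart. How the deposited values were centred is not known: over all genes the median was 0.29 ± 0.08 for introns and -0.14 ± 0.06 for exons (SD of the 3 replicate medians). Replicates are given below in the order 1, 2 and 3, and adjusted p-values are those of limma after Benjamini-Hochberg adjustment over all features of a class.

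The first question is how far these introns gave more signal in S2197F than in wild type. The intron signal rose for 13 of 34 genes and fell for 0, where 23.5% of all 251 intron features rose. All 34 mean ratios were above 0, from 0.11 for RPS19A to 0.97 for RPS19B. In 29 genes all 3 replicates were above 0 (85.3%), against 51.4% of all introns measured in every replicate and 77.8% of the paired large subunit introns. In 0 genes were all 3 below 0, against 4.49% of all introns. The median over the genes was 0.54, 0.50 and 0.35 in the 3 replicates (0.46 ± 0.10, SD, n = 3), which is 1.38-fold. Without the 8 genes of equal span, 10 of 26 rose. With unmoderated variances 0 of the 34 passed. Leaving out replicate 1 gave 7 calls, and leaving out replicate 2 gave 0, while calls in the whole table went down to 2, against 59 with all replicates. The ratios themselves stayed about as high without replicate 2: the median was 0.44, RPS7A had 0.99 (adjusted p = 0.125) and RPS19B had 1.00 (adjusted p = 0.149).

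**Figure D1:**
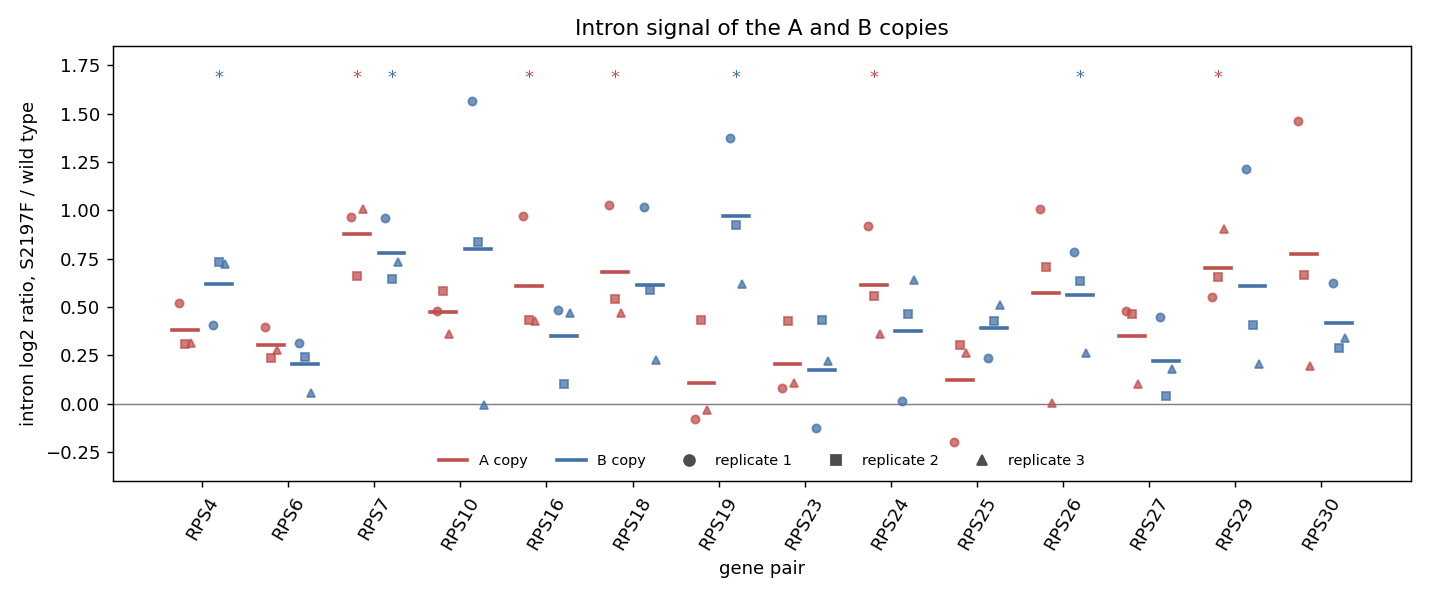
Intron log2 ratio of S2197F over wild type (vertical axis) for the A copy (red) and B copy (blue) of 14 of the 17 pairs. Symbols are the 3 replicates, bars are their means, and stars mark the 9 of these 28 genes that passed limma at an adjusted p under 0.05. All 28 means lie above 0, and the RPS19 copies lie farthest apart.

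Among the proteins of the head, 5 of 14 introns rose. The highest of all 34 was RPS19B, 1 of the 2 genes for a head protein whose human counterpart is mutated in Diamond-Blackfan anaemia. Its ratios were 1.38, 0.92 and 0.62, a mean of 0.97 ± 0.19 (SE, 1.96-fold, adjusted p = 0.021). RPS29A, for a small zinc-binding protein, had 0.55, 0.66 and 0.90 (0.70 ± 0.16, adjusted p = 0.0241). RPS18A, for a protein at the contact between the subunits, had 1.03, 0.54 and 0.47 (0.68 ± 0.18, adjusted p = 0.0371). For these 3 genes every replicate was well above 0, with the highest value in replicate 3 for RPS29A and in replicate 1 for RPS19B and RPS18A. RPS16A, whose protein reaches towards the tRNA in the peptidyl site, had 0.97, 0.43 and 0.43 (0.61 ± 0.18, adjusted p = 0.0426). RPS16A and RPS18A both drew on a high value in replicate 1. Without it neither passed (0.43, adjusted p = 0.204 for RPS16A and 0.51, adjusted p = 0.145 for RPS18A).

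Among the proteins of the body, 7 of 18 introns rose. Both copies of RPS7, whose protein is a target of the ubiquitin ligase Not4, did so. RPS7A had 0.97, 0.66 and 1.01 (0.88 ± 0.16, 1.84-fold, adjusted p = 0.021). RPS7B had 0.96, 0.64 and 0.73 (0.78 ± 0.16, 1.72-fold, adjusted p = 0.021). The lowest replicate of either RPS7 copy was above the median of the 34 genes in its replicate.

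RPS4B had 0.41, 0.73 and 0.72 (0.62 ± 0.16, adjusted p = 0.0371). RPS24A had 0.92, 0.56 and 0.36 (0.61 ± 0.17, adjusted p = 0.0422). Both genes encode structural proteins of the body, and each was above 0 in every replicate. RPS24A did not pass without replicate 1 (0.46, adjusted p = 0.184), nor did RPS4B without replicate 3 (0.57, adjusted p = 0.0761). RPS26B, whose protein lies on the platform where mRNA leaves the subunit, had 0.78, 0.64 and 0.26 (0.56 ± 0.17, adjusted p = 0.0492). Without replicate 1 RPS26B did not pass (0.45, adjusted p = 0.193). Its partner RPS26A had a like mean of 0.57 but a wider spread, with 1.01, 0.71 and 0.01, and did not pass (adjusted p = 0.0884).

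The 21 genes that did not pass included some with high means. RPS10B, for a protein of the head, had 1.56, 0.84 and -0.01 (0.80 ± 0.27, adjusted p = 0.0677). RPS30A, made in mammals as a fusion with a ubiquitin-like protein, had 1.46, 0.67 and 0.19 (0.77 ± 0.24, adjusted p = 0.0515). Both were highest in replicate 1 and lowest in replicate 3. The lowest mean outside RPS19A was that of RPS25A (0.12), whose protein serves initiation at internal sites. Both copies of RPS23, for a protein of the decoding centre, were also low (0.20 for RPS23A and 0.18 for RPS23B). RPS6B, for the protein phosphorylated under control of the TOR kinase, had 0.20 too. RPS27B, for a zinc-binding protein, followed at 0.22. The partners of the genes named so far gave means between 0.30 and 0.61: RPS6A 0.30, RPS27A 0.35, RPS16B 0.35, RPS24B 0.37, RPS4A 0.38, RPS25B 0.39, RPS30B 0.42, RPS10A 0.47, RPS29B 0.61 and RPS18B 0.61. None of these 10 passed, and RPS29B (1.21, 0.41 and 0.20) was uneven like RPS10B. The order among the genes repeated poorly. Over the 34 genes, Pearson's r between intron ratios was 0.53 for replicates 1 and 2, -0.02 for 1 and 3, and 0.27 for 2 and 3, against 0.64, 0.43 and 0.41 over all rows. These are descriptions across genes, which share arrays and are not independent.

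Differences between features of the same gene do not change when a replicate is shifted as a whole. Intron minus junction, the intron signal relative to the spliced signal, rose for 8 of 33 genes (24.2%) and fell for 0. That share is near the 21.1% of all features that rose. RPS18A had the highest value, with 1.57, 0.71 and 2.97 (1.75 ± 0.30, adjusted p = 1.51e-05). Its size came from replicate 3, and without that replicate it was 1.14 (adjusted p = 0.104). RPS7A had 1.75, 0.81 and 1.54 (1.37 ± 0.28, adjusted p = 0.000308). RPS19B had 1.69, 1.15 and 0.93 (1.26 ± 0.28, adjusted p = 0.000811). RPS10B had 1.86, 1.20 and 0.56 (1.21 ± 0.29, adjusted p = 0.0013). All 4 genes stayed above 0.5 in every replicate.

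The other 4 genes past the threshold lay between 0.83 and 1.07. RPS29A had 0.94, 0.89 and 1.37 (1.07 ± 0.28, adjusted p = 0.00417). RPS7B had 1.30, 0.81 and 0.95 (1.02 ± 0.28, adjusted p = 0.00528). RPS30A had 2.02, 0.71 and 0.27 (1.00 ± 0.29, adjusted p = 0.00945), and without replicate 1 it was 0.49 (adjusted p = 0.27). RPS4B had 0.49, 1.15 and 0.85 (0.83 ± 0.28, adjusted p = 0.0259). The median was 0.52, 0.71 and 0.58 (0.60 ± 0.09, SD, n = 3; 1.52-fold). In 21 of the 31 genes with 3 values every replicate was above 0 (67.7%), against 57.5% of all features, and in 0 genes was every replicate below, against 1.87%. In this fit the shared variance weighed far more than each gene's own (57.2 prior degrees of freedom), so these SEs hardly reflect the spread of single genes. Without replicate 3, 0 of the 33 genes passed and 2 features did in the whole table, against 53 with all replicates. The median was then 0.61, RPS10B had 1.53 and RPS19B 1.42 (adjusted p = 0.0615 for both), so RPS18A was the gene named here whose value dropped most.

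Intron minus exon, the intron signal relative to the total mRNA of the gene, rose for 20 of 34 genes and fell for 0, where 29.3% of all features rose. It uses the same intron values, so it does not stand apart from the comparisons above. The median was 0.68, 0.65 and 0.70 (0.67 ± 0.03, SD, n = 3; 1.60-fold). The highest were RPS19B (1.29 ± 0.23, with 1.26, 1.47 and 1.14) and RPS18A (1.28 ± 0.23, with 1.62, 1.17 and 1.06), both with an adjusted p of 0.000981. In 30 genes all 3 replicates were above 0 (88.2%), against 54.2% of all features, and in 0 genes were all 3 below, against 5.83%. Without replicate 2, 8 genes passed, and without replicate 1, 0 did, as in the whole table (0 calls, against 72 with all replicates). Without replicate 1 some differences stayed about as large, with 1.31 for RPS19B, 1.11 for RPS18A, 1.10 for RPS26B and 1.05 for RPS4B. Each of these had an adjusted p of 0.0765. Of other genes, RPS29B dropped from 0.83 to 0.56 (adjusted p = 0.147) and RPS16B went from 0.73 to 0.77 (adjusted p = 0.0876).

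By place in the subunit, 12 of 14 head genes passed in intron minus exon (85.7%), against 6 of 18 body genes (33.3%). Both RPS26 copies of the platform passed. Over all features 29.3% rose, and over the paired large subunit genes 57.8%. RPS25B, RPS29A and RPS29B of the head and both RPS26 copies belong to pairs of equal span. Whether their values are levels of an unspliced intron is not known here. The 2 head genes that did not pass were RPS10A (0.57) and RPS25A (0.37). The median was 0.88, 0.89 and 0.84 for the head and 0.55, 0.57 and 0.66 for the body. The head exceeded the body by 0.28 ± 0.08 (SD, n = 3), and by 0.25 to 0.33 when a replicate was left out. With 3 values the smallest two-sided p of an exact test by sign changes is 0.25, so none was used here. The introns themselves differed little between the 2 lists (0.05 ± 0.06, head minus body). The exon ratios differed more: head minus body was -0.34, -0.29 and -0.12, a mean of -0.25 ± 0.12 (SD, n = 3).

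**Figure D2:**
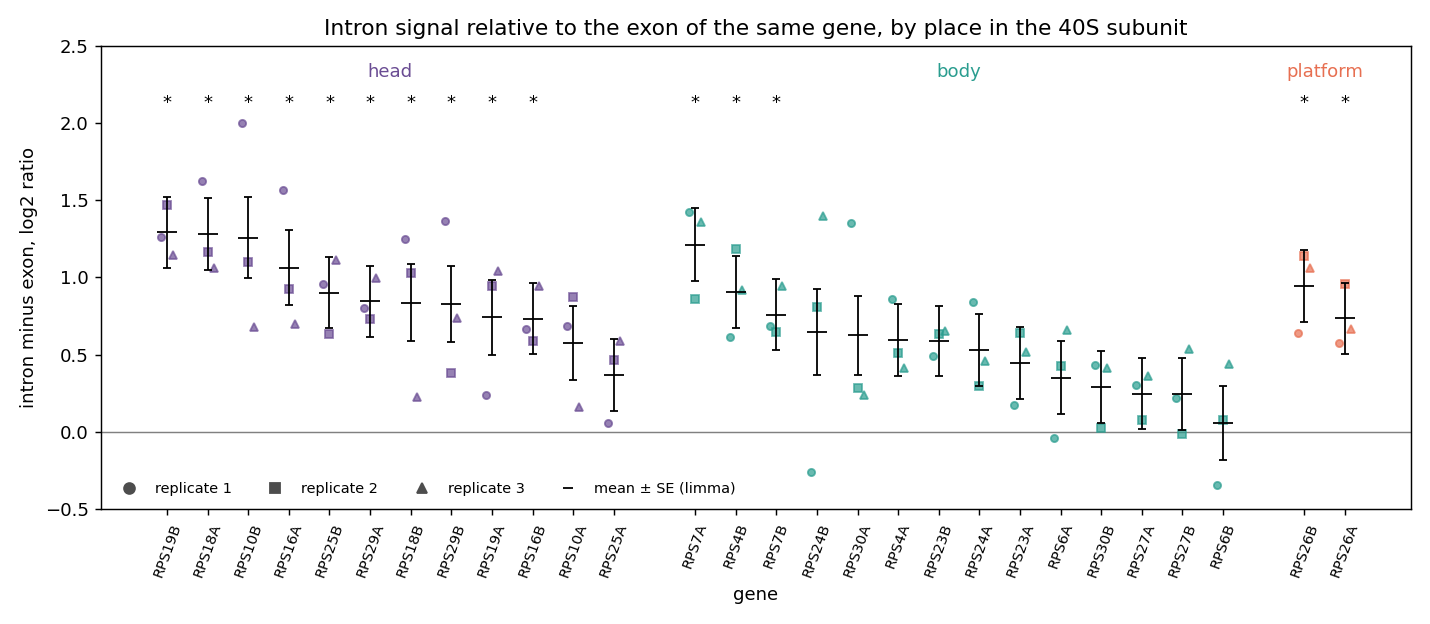
Intron minus exon log2 ratio (vertical axis) for 28 genes of 14 pairs, grouped by the place of its protein in the small subunit and ordered by mean. Coloured symbols are the 3 replicates, black marks are means ± SE from limma (n = 3), and stars mark genes with an adjusted p under 0.05. Of the head genes drawn 10 of 12 carry a star, against 3 of 14 body genes. RPS25, RPS26 and RPS29 are pairs of equal span, and whether their values are levels of an unspliced intron is not known here.

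Spliced and total RNA were examined next. By limma 0 of 33 junction features passed, where 0.403% of all junctions fell and 0% rose. Before adjustment 4 of 33 were lower (p under 0.05) and 0 higher, a share of lower junctions near that of the whole table. There, 29 were lower and 4 higher of 248 junctions. The junction median was -0.11, -0.20 and -0.23 (-0.18 ± 0.06, SD, n = 3), against -0.14 ± 0.07 over all junctions. Of 31 junctions measured in every replicate, 11 were below 0 in all 3 (35.5%), where 29.7% of all junctions were, and 0 were above, where 6.85% were. The genes with the lowest tested junctions were RPS18A (-0.55, -0.16 and -2.50, mean -1.07 ± 0.40, adjusted p = 0.284), RPS7A (-0.78, -0.16 and -0.53, mean -0.49 ± 0.18, adjusted p = 0.275) and RPS10B (-0.30, -0.37 and -0.57, mean -0.41 ± 0.16, adjusted p = 0.31). The low mean of RPS18A came from replicate 3. The single RPS26A value was -1.29 and was not tested.

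The exon signal passed for 0 of 34 genes by limma, where 0% of all exons were called either way. Before adjustment 7 of 34 were lower (p under 0.05) and 0 higher, against 26 lower and 4 higher of all 234 exons. Of the 46 paired large subunit exons 8 were lower. The exon median was -0.12, -0.20 and -0.35 (-0.22 ± 0.12, SD, n = 3), against -0.14 ± 0.06 over all exons. In 16 genes all 3 replicates were below 0 (47.1%), against 33.3% of all exons, and in 0 genes were all 3 above, against 6.41%. The lowest were RPS19A (-0.32, -0.51 and -1.07, mean -0.63 ± 0.19) and RPS18A (-0.59, -0.62 and -0.59, mean -0.60 ± 0.15), each with an adjusted p of 0.337. RPS18A differed by an SD of only 0.02 between replicates. Junction minus exon passed for 0 of 33 genes by limma, where 0% of all features did. Before adjustment only RPS19A was higher (p under 0.05) and 0 were lower, against 5 higher and 6 lower of all 244 features. The median was 0.06 ± 0.07 (SD, n = 3).

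The next question is whether the A and B copies of a pair responded differently. By limma 0 of 17 pairs differed in the intron, 0 of 16 in the junction and 0 of 17 in the exon, where 0% of all pairs did in each class. Before adjustment (p under 0.05) the counts were 1, 0 and 0. By calls on single genes, both copies rose in 2 pairs, RPS7 among them, only A in 6 pairs and only B in 3 pairs. Those uneven calls do not show differences between copies, since none of the 9 pairs passed the test of A minus B. RPS18 shows this: RPS18A passed and RPS18B did not (1.02, 0.59 and 0.23, mean 0.61 ± 0.19, adjusted p = 0.0515), yet A minus B was 0.07 ± 0.18. The size of A minus B in the intron had a median of 0.13 over the 17 pairs, below the median SD of 0.27 between replicates. The mean of the A copy was above that of the B copy in 13 of 17 pairs for the intron, but in 8 of 17 for intron minus exon. In intron minus exon both copies passed in 8 pairs, only A in 0 and only B in 4. A minus B was not tested for intron minus exon. Both splits of calls by copy were counted for these 17 pairs only, with no share over all pairs to set beside them. The intron medians of the A and B copies differed by -0.04, 0.08 and 0.02 (0.02 ± 0.06, SD, n = 3). Across pairs the intron means of A and B copies correlated at r = 0.18 (n = 17, copies on the same arrays), as a description.

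**Figure D3:**
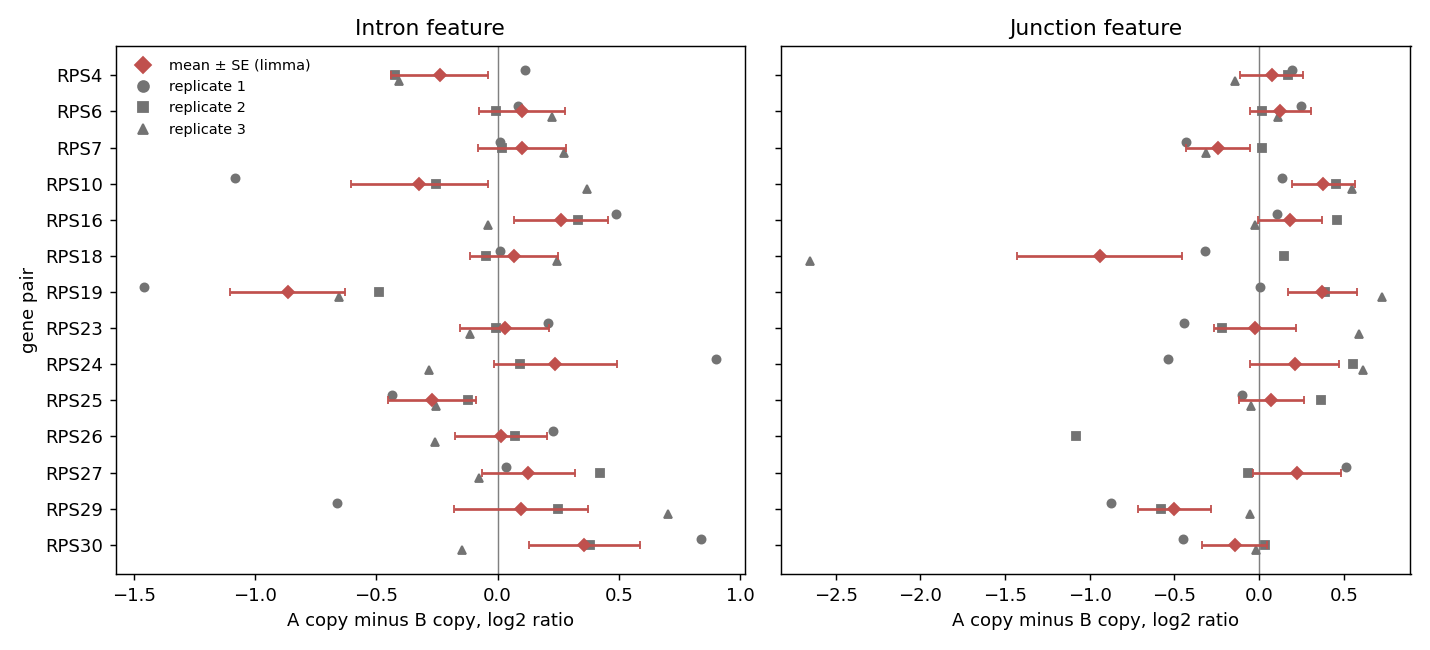
A copy minus B copy of the log2 ratio for the intron (left) and junction (right) of 14 pairs. Grey symbols are the 3 replicates and red diamonds are means ± SE from limma; RPS26 has 1 junction value and no mean. The RPS19 intron difference is below 0 in all 3 replicates, and the RPS18 junction difference rests on replicate 3.

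RPS19 had the largest difference between copies in the intron. RPS19A had -0.08, 0.43 and -0.03 (0.11 ± 0.17, adjusted p = 0.704), far under the 1.38, 0.92 and 0.62 of RPS19B. A minus B was -1.46, -0.49 and -0.65 (-0.87 ± 0.24) and did not pass (adjusted p = 0.166). RPS19 was 1 of 4 pairs out of 17 whose intron difference kept 1 sign in every replicate, where 38.6% of all pairs did. The others included RPS7, with the A copy higher by 0.10, and RPS25, with A minus B at -0.27. The RPS19 difference passed without replicate 2 (-1.05, adjusted p = 0.0379), and its adjusted p ran from 0.0379 to 0.79 over the alternatives. In the junction the copies stood the other way round, with -0.31, 0.17 and 0.41 in RPS19A and -0.32, -0.22 and -0.31 in RPS19B (A minus B 0.37 ± 0.21, adjusted p = 0.43). The intron relative to the junction therefore differed by -1.46, -0.88 and -1.38 (-1.24 ± 0.41, adjusted p = 0.152), where 0 of 16 pairs passed by limma, 2 were under 0.05 before adjustment and 0% of all pairs were called. That SE is the same for every pair with 3 values, because the fit took 1 variance for all pairs. The exons had -0.32, -0.51 and -1.07 in RPS19A and 0.11, -0.55 and -0.52 in RPS19B (A minus B -0.32 ± 0.20). Relative to its own exon the RPS19A intron was higher, by 0.24, 0.94 and 1.04 (0.74 ± 0.24, adjusted p = 0.0262). Both RPS19 copies thus passed in intron minus exon.

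RPS18 had the largest tested difference in the junction and in the exon. Its junctions had -0.55, -0.16 and -2.50 in RPS18A and -0.23, -0.31 and 0.15 in RPS18B, so that A minus B was -0.32, 0.15 and -2.65 (-0.94 ± 0.49, adjusted p = 0.43). The 3 values do not keep 1 sign; 4 of 15 member pairs did in the junction, where 36.1% of all pairs did. With replicate 3 left out the difference was -0.09 (adjusted p = 0.879), and with replicate 1 or 2 left out it passed (adjusted p = 0.00205 and 0.00106). Its exons had -0.59, -0.62 and -0.59 in RPS18A and -0.23, -0.44 and -0.0016 in RPS18B, an A minus B of -0.38 ± 0.19 (adjusted p = 0.617). The B copy was the higher of the exons in every replicate. Over all 17 pairs the exon difference had a median size of 0.20 and did not exceed 0.38, and 6 of 17 pairs kept 1 sign, where 28.9% of all pairs did.

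The copies also differ in gene length. All 34 genes matched RefSeq entries of assembly R64 by locus tag. The spans in bases of the 4 pairs with equal copies include 327 for RPS25, 360 for RPS26 and 171 for RPS29. Spans of the other 13 pairs differed between copies. The deposited table lists an intron and a junction for the 8 genes of equal span too, and where their probes lie is not given in the sources used here. Of their introns 3 of 8 rose (37.5%), against 10 of 26 (38.5%) in the other pairs, and the medians differed by 0.07 ± 0.22 (SD, n = 3). In the 13 pairs of unequal span, the longer copy had the higher mean intron ratio in 9 and the lower in 4. RPS19B, with the longer span of its pair (986 bases, against 825 for RPS19A), was 1 of the 9, while RPS27B, with the longest lead of all (799 bases, against 600 for RPS27A), had the lower ratio. The difference in span and the difference in ratio correlated at r = 0.44 and a Spearman rho of 0.49 over the 13 pairs, as a description.

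The closest genes for comparison are the 46 paired large subunit genes (23 RPL pairs, without RPL7). Their introns rose in 18 of 45 features (40%), against 13 of 34 (38.2%) here. The difference of medians, small minus large subunit, was -0.04, 0.09 and -0.08 (-0.01 ± 0.09, SD, n = 3), which is within the spread of the replicates. Intron minus exon differed by -0.02 ± 0.12, intron minus junction by -0.03 ± 0.11, and exons by 0.05 ± 0.08. Intron minus junction rose in 14 of 45 large subunit features (31.1%), against 8 of 33 (24.2%) here. Against the 139 genes not named as ribosomal proteins, where 15 of 149 introns rose (10.1%), the paired RPS introns were higher by 0.58, 0.32 and 0.08 (0.33 ± 0.25, SD, n = 3). This was above 0 in every replicate but uneven. Intron minus exon exceeded those genes by 0.64, 0.48 and 0.33 (0.48 ± 0.15), and intron minus junction by 0.29, 0.49 and 0.19 (0.32 ± 0.15). For exons this difference was 0.02, -0.24 and -0.26, so replicate 1 stood apart.

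**Figure D4:**
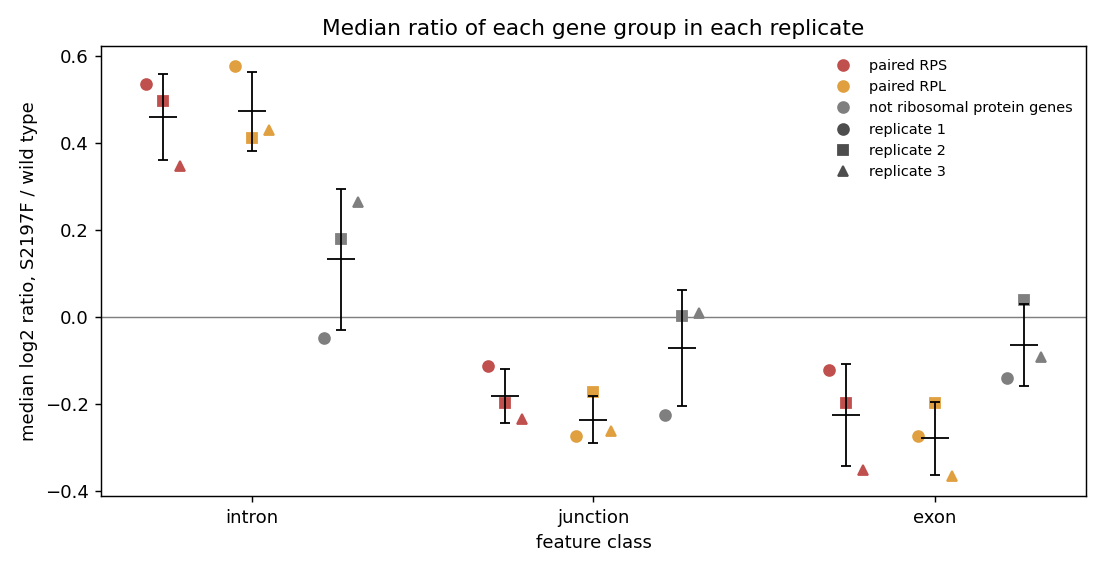
Median log2 ratio of S2197F over wild type (vertical axis) for intron, junction and exon features of the paired small subunit genes (red), the paired large subunit genes (orange) and genes not named as ribosomal proteins (grey). Symbols are the 3 replicates, and black marks are their mean ± SD (n = 3). The intron medians of both subunits lie between 0.35 and 0.58, above the other genes in every replicate.

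Other small subunit genes with introns were taken from a list of 11 genes with 12 rows, which holds the pairs left out here, RPS13, RPS22B and ASC1. Their introns rose in 8 of 12 rows and fell in 0. The highest were ASC1, the scaffold protein on the head (1.31 ± 0.22), and RPS0B, related to the human laminin receptor (1.08 ± 0.22). In intron minus junction the paired genes less that list gave medians of -0.62, -0.06 and -0.60 (-0.43 ± 0.32, SD, n = 3), with 8 of 33 genes past the threshold against 9 of 12 rows. The 2 ranges overlap, since RPS14A had 0.51 ± 0.28 and RPS18A 1.75 ± 0.30. In the intron alone the difference of medians was -0.16, 0.05 and -0.47 (-0.19 ± 0.26), which is within the spread of the replicates.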

How the data were processed

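The authors deposited log ratios of S2197F over wild type, here named log2, with 1 value per biological replicate from an array analysed with its dye flip, per the labels; for image analysis, background correction and normalization, settings were not given in the sources used here. A column of 1 replicate thus holds 2 arrays. The deposited single-array log2 table was read only for its ceiling, since its 9216 spots carry no gene names. Features with at least 2 values were tested against 0 with limma 3.58.1 in R 4.3.3, with exon, intron and junction in 1 fit and each difference between classes in a fit of its own, at an adjusted p of 0.05. Repeated exon rows of a gene, and the junction that SNR17A and SNR17B share, counted once. A minus B was fitted over all 45 gene pairs of the table with 1 row per copy. The code was tested on simulated data. The members, lists (places in the subunit included) and tests were chosen with earlier results of these data known. The rule for named genes gives all replicates for members past the threshold in the intron, junction, exon or intron minus junction, and for the pairs with the largest difference between copies. The split by gene span was chosen after the values were seen. Some members are not reported by name here and are left out of the plots of single genes; counts and medians over the members include them.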

Additional observations from a re-analysis of the deposited data

How the results depend on the processing

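Leaving out a replicate gave 0 to 15 intron calls among the 34 genes (13 with all replicates), 0 to 7 for intron minus junction (8), 0 to 16 for intron minus exon (20) and 0 to 1 for the junction (0). It gave 0 to 1 pairs for A minus B of the intron, which was RPS19, and 0 to 1 for the junction, which was RPS18. With unmoderated variances 0 introns, 0 intron minus junction and 0 intron minus exon values passed. Centring every replicate on the median of its exons gave 24 intron calls, which include all 13, and medians of 0.60 for the intron, -0.046 for the junction and -0.089 for the exon. With values in all 3 replicates required, 13 intron minus junction values passed. Robust variances and separate fits per class kept all 13 intron calls. No called value changed sign under any of the alternatives run, and exon and junction minus exon calls were 0 in all of them. Calls in the whole table went down with those of the members, to 2 introns without replicate 2 (59 with all replicates), 2 for intron minus junction without replicate 3 (53) and 0 for intron minus exon without replicate 1 (72), while the members' intron median stayed between 0.42 and 0.52. Each value is a ratio within a pair of cultures, so the test against 0 is itself the paired analysis. With 3 replicates and no signal over background in the table, differences between copies of the usual size here could not be resolved.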
